A study of Mus musculus with 12 samples.

Results

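The response of wild-type mouse CD4 T cells to antibodies against CD3 and CD28 was measured as the difference between 3 stimulated and 3 resting libraries, 6 of the 12 RNA libraries (polyA RNA) of a study of how pyruvate kinase M2 bears on CD4 T cell survival. Naive T cells came from the spleen and lymph nodes of wild-type mice by the design text, and from splenocytes by the sample labels, and CD4 T cells were taken by positive selection. Both groups were plated with human interleukin 7 (IL7, 25 ng/mL), a cytokine on which naive T cells depend. Resting wild-type cells (WT) had IL7 alone, and stimulated WT cells also had plate-bound anti-CD3 (1 ug/mL) and anti-CD28 (2 ug/mL). The culture time is given as 24 hours in the design text and as overnight in the labels, and no age or sex is given. The other 6 libraries, from Pkm2 knockout cells under the same culture conditions, entered the low-count filter, the scaling and the estimate of the spread. They also served for a comparison at the end. The members were the genes measured in both deposited tables, joined by gene identifier, with the 4184 genes on chromosomes X and Y left out; of 55450 genes in all, 16924 had enough counts to be tested, 13546 of them protein coding.

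A naive CD4 T cell is small and out of the cell cycle. Binding of the T cell receptor with CD28 starts calcium, MAP kinase and NF-kB signals that switch on the gene for interleukin 2, the receptor for it, and the transcription factor Myc. Within a day the cell grows, makes ribosomes, takes up glucose and amino acids, copies its DNA and loses the transcripts that hold it in rest and in the circulation between lymph nodes.

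Library totals were 63266506 to 71301875 expected counts at rest and 72095794 to 74590958 after stimulation, so that 3 counts correspond to about 0.04 CPM. Levels are in CPM, counts per 1e6 counts of the TMM-scaled library, with no correction for gene length. They are relative to the library, so a rise or fall below is not one in RNA per cell. The defining genes of CD4 T cells were present in all 6 libraries: the 18 markers on that list summed to 7570 to 9481 CPM at rest and to 5481 to 5566 CPM after stimulation. Transcripts of other cells were present too and differed between the groups. The 16 myeloid markers summed to 5171, 2710 and 1754 CPM in the 3 resting libraries and to 64.5, 105 and 78.3 CPM after stimulation, and the 9 erythroid markers to 1597, 497 and 68.9 against 22.8, 84.6 and 25.0 CPM. The 17 B cell markers summed to 1582 to 3305 CPM at rest and 588 to 970 CPM after stimulation, and the 11 NK cell markers to 185 to 221 and 37.7 to 70.5 CPM. The 10 dendritic cell markers summed to 149 to 222 CPM at rest and 312 to 410 CPM after stimulation. By the test below 5 of them were lower and 4 higher, with a median log2 fold change of -2.20. The 7 regulatory T cell markers, which include Il2ra, summed to 265 to 339 and 1147 to 1237 CPM. Of these 4 were lower and 2 higher, with a median of -0.29. Sex-linked RNAs were unlike between the groups as well. Xist, which coats the inactive X chromosome, was at 0.0578 to 0.0701 CPM at rest and 822 to 846 CPM after stimulation, whereas Ddx3y, a Y-linked helicase, was at 162 to 172 CPM at rest and at 0 in each stimulated library. Stimulation, the table a library was deposited in and these sex-linked transcripts cannot be told apart, and every difference below is between the libraries labelled resting and stimulated.

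**Figure D1:**
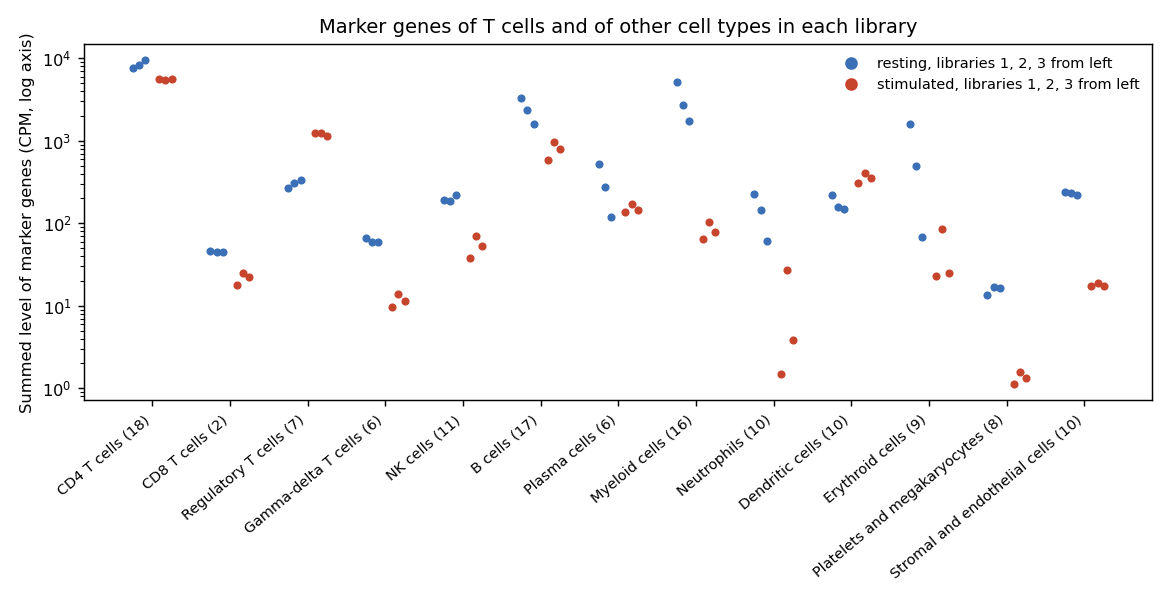
Summed level of marker genes of T cells and of other cell types (CPM, log axis, number of genes in brackets) in each resting (blue) and stimulated (red) library. Myeloid and erythroid sums differ among the resting libraries, with library 1 the highest (5171 and 1597 CPM), while CD4 T cell markers lie between 5481 and 9481 CPM throughout.

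Most genes differed between resting and stimulated cells. With edgeR's quasi-likelihood test and a Benjamini-Hochberg adjusted p below 0.05, 14238 genes were called (84.1% of those tested), 6653 higher (39.3%) and 7585 lower (44.8%) after stimulation. At least 2-fold changes were called for 9203 genes (54.4%), 3905 higher (23.1%) and 5298 lower (31.3%), and at least 16-fold changes for 356 and 1381. For 84.7% of genes the 3 stimulated libraries lay wholly above or wholly below the 3 resting ones. Against this background a call by itself says little about a gene, so sizes and levels are given throughout, and lists are read beside the median log2 fold change (log2FC, stimulated minus resting) of all genes, -0.14. Levels of 3 libraries are given in the order of their replicate numbers, and pairs of values with ± are group means with their SD (n = 3 each). The SE given with a log2FC was derived from the test's F statistic and is not the spread of the libraries. The median of all genes depends on the scaling: with library totals in place of TMM factors it lies 0.344 lower, at -0.486, and 37.0% rather than 46.7% of called genes are higher. Of the 5298 genes lower by at least 2-fold, 2535 differed by 1.5-fold or more among the resting libraries themselves. Whether replicates were separate mice is not stated, so the p-values cover no more than the spread among these 6 libraries and those of the KO cells.

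**Figure D2:**
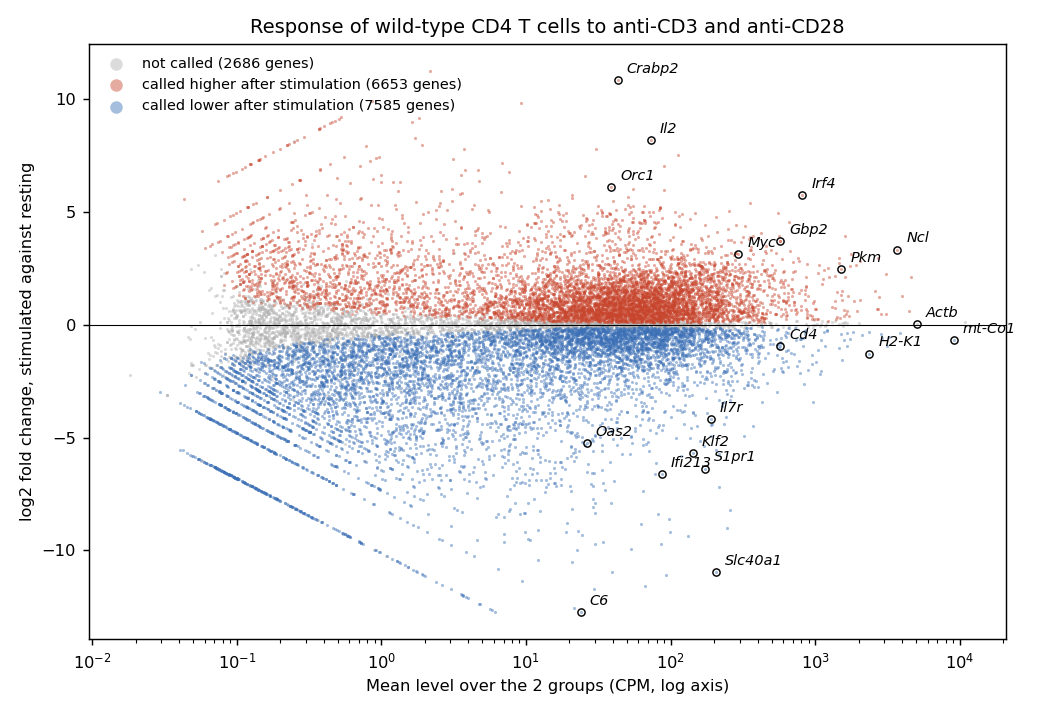
Log2 fold change of each of the 16924 genes tested against its mean level (CPM, log axis), with genes called higher in red, called lower in blue and not called in grey; 19 genes of the text are ringed. Il2, Crabp2 and Irf4 lie far above 0 and C6, Slc40a1, Ifi213 and S1pr1 far below it, while Actb lies near 0.

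Of the genes whose highest group mean reached 20 CPM, those with the largest rise were a mixture of signalling, cell cycle and metabolic genes. Crabp2, which carries retinoic acid in the cell, rose from 0.0649, 0.0428 and 0.0273 CPM in the resting libraries to 93.1, 85.8 and 79.3 CPM in the stimulated ones, a log2FC of 10.83 ± 0.14 SE (11.53 without resting libraries 1 and 2). Il2, the T cell growth factor (ENSMUSG00000027720.7, chr3:37120523-37125959 in mm10), rose from 0.363, 0.456 and 0.669 to 121, 137 and 176 CPM, a log2FC of 8.19 ± 0.31 SE (adjusted p = 2.1e-09). Neither gene's groups overlapped, as was the case for 84.7% of all genes tested. Lif, a cytokine of the interleukin 6 family, rose from 1.06, 1.51 and 1.06 to 225, 224 and 219 CPM, and Bcat1, the cytosolic enzyme that takes the amino group from branched-chain amino acids, from 1.04, 1.34 and 1.64 to 167, 183 and 184 CPM. Ak4, a mitochondrial adenylate kinase (log2FC 7.79, and 8.41 without resting libraries 1 and 2), Ncs1, a neuronal calcium sensor (log2FC 6.60), and Dnph1, a nucleotide hydrolase (log2FC 5.61), also rose. So did a set that acts on DNA: Orc1 and Mcm10 of the replication origin (log2FC 6.10 and 5.95), the exonuclease Exo1 (log2FC 5.65), the meiotic and mitotic checkpoint ATPase Trip13 (64.0-fold) and Aunip, which binds Aurora A (log2FC 5.53). Irf4, the transcription factor whose level follows the strength of receptor signalling, rose from 31.1, 29.4 and 28.8 to 1682, 1578 and 1546 CPM (log2FC 5.75 ± 0.10 SE).

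The 250 bases before the RefSeq start of 4 genes are shown because these genes stand for the main directions of the response: Il2 for the cytokine genes, Orc1 (chr4:108579423-108614833) for the replication genes, and Gbp2 (chr3:142620602-142638008) and Ifi213 (chr1:173566283-173599274) for interferon-response genes that moved in opposite directions. Sequences are from RefSeq for GRCm38.p6, 5′ to 3′ on the gene's own strand, and capitals mark a match on either strand to the letters named. For Il2 (chr3:37125955-37126204, minus strand) the search was for the NFAT core GGAAA, AP-1 (TGANTCA) and NF-kB (GGNNTTTCC), and 2 matches to the core and 0 to the others were found. For Orc1 (chr4:108579204-108579453, plus strand) capitals mark 1 match to E2F (TTTCGCGC) and 2 to the CCAAT box (CCAAT). For Gbp2 (chr3:142620413-142620662, plus strand) and Ifi213 (chr1:173599273-173599522, minus strand) they mark 1 match each to the interferon-stimulated element (GAAANNGAA).
Il2: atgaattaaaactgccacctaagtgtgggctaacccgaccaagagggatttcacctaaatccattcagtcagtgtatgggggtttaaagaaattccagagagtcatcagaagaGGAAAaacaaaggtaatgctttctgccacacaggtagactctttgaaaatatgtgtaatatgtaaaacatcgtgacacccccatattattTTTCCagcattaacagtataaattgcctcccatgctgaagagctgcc
Orc1: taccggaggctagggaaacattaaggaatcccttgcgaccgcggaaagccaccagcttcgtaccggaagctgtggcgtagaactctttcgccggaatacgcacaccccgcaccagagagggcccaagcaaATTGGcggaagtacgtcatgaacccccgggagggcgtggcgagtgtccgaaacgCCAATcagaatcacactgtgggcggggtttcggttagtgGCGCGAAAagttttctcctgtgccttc
Gbp2: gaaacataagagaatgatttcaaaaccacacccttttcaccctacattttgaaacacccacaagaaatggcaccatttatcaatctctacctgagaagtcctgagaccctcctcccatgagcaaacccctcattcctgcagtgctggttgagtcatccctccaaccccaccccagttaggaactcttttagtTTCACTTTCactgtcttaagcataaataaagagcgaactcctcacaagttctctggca
Ifi213: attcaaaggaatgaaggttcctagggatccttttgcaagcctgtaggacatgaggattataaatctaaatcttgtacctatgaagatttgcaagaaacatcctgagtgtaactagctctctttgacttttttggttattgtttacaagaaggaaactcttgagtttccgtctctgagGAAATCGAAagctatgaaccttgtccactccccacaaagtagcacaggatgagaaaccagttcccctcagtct
Over the 11249 tested genes with a RefSeq promoter, the same window held the NFAT core in 54.3%, AP-1 letters in 4.4%, NF-kB letters in 5.4%, the E2F letters in 0.5%, the CCAAT box in 35.9% and the interferon-stimulated element in 6.6%. A match is a description of letters, not a binding site, and no match says only that these exact letters are not in the window. Only 66.5% of tested genes, 63.1% of those called higher by at least 4-fold and 63.3% of those called lower by at least 4-fold had a promoter in the table, so a comparison of motif shares between these sets is void and none is given.

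Most genes of the T cell receptor complex and its first kinases were lower after stimulation, but by little. Of 22 genes tested 16 fell and 5 rose, with a median log2 fold change of -0.57, and 3 fell by at least 2-fold. Grap2, the adaptor that links LAT to SLP-76, fell from 502, 585 and 680.5 to 111, 103 and 93.5 CPM (log2FC -2.52 ± 0.10 SE). Cd3g, the gamma chain of CD3, fell from 247, 267 and 311 to 56.9, 58.7 and 56.7 CPM (log2FC -2.26 ± 0.08 SE), and Plcg1, the phospholipase that makes the calcium-releasing messenger, from 356 ± 48.7 to 144 ± 5.09 CPM. The resting and stimulated libraries did not overlap for these 3 genes, as was the case for 84.7% of all genes tested. Among 22 genes of calcium entry and calcineurin 7 rose and 10 fell, with a median of -0.11 that is close to that of all genes. The 4 lower by at least 2-fold were the store channel subunit Orai2 (log2FC -3.79), the IP3 receptors Itpr2 (log2FC -2.16) and Itpr3 (log2FC -1.90) and the calcineurin subunit Ppp3ca (log2FC -1.53).

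The inhibitors of receptor signalling did not move as a group. Of 22 genes 11 rose and 8 fell, and their median of 0.28 became -0.07 with library totals. Rgs16 and Rgs1, which shorten G protein signals, rose with a log2FC of 4.39 and 1.87. Spry1, a Sprouty inhibitor of MAP kinase signalling, rose from 3.93 ± 0.351 to 76.4 ± 2.73 CPM, and Dusp4, a nuclear MAP kinase phosphatase, rose with a log2FC of 3.55. The largest fall was that of Dgka, the kinase that removes diacylglycerol and is known for its high level in unresponsive T cells, from 828, 974 and 1115 to 128, 123 and 123 CPM (log2FC -2.97 ± 0.10 SE). Dusp1 (log2FC -1.50), Spry2 (log2FC -1.23) and the ubiquitin ligase Cbl (log2FC -1.11) also fell.

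Transcription factors of the AP-1, Egr and Nr4a families were higher at this late time in 16 of 18 cases, with a median log2 fold change of 1.25. Fosl1, the AP-1 member Fra-1, rose from 4 counts in all 3 resting libraries together to 18.6, 19.0 and 17.5 CPM, and the stress-inducible Atf3 from 3.49, 2.34 and 2.54 to 116, 111 and 95.4 CPM (log2FC 5.26 ± 0.13 SE). Egr4 and the orphan receptor Nr4a2 rose too, with a log2FC of 3.82 and 3.23, although Egr4 stayed at a low level (0.409 CPM). Fos itself, an immediate early gene, was the member that fell, from 16.6, 11.8 and 9.74 to 5.95, 6.25 and 6.77 CPM. Of 20 NFAT, NF-kB, IRF and BATF genes 14 rose and 3 fell. After Irf4 the largest rises were those of Irf8 (108 ± 47.9 to 544 ± 48.6 CPM, log2FC 2.34, and 3.06 without resting libraries 1 and 2), a partner of Irf4 in lymphocytes, the helix-loop-helix factor Bhlhe40 (log2FC 2.26) and the NF-kB subunit Nfkb2 (log2FC 1.83), while the inhibitor-like Nfkbiz fell (log2FC -1.63).

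Surface receptors of activated cells were higher, with 17 of 22 called higher, 14 of them at least 2-fold, and a median of 1.25. Il2ra, the high-affinity chain of the interleukin 2 receptor, rose from 62.0, 76.8 and 104 to 1095, 1099 and 986 CPM (log2FC 3.71 ± 0.18 SE). Tfrc, the transferrin receptor that takes up iron, rose from 60.7, 54.1 and 48.2 to 1298, 1202 and 1325 CPM (log2FC 4.55 ± 0.32 SE). The early activation marker Cd69 rose from 52.0, 56.4 and 66.0 to 123, 153 and 145 CPM (log2FC 1.27 ± 0.10 SE). Cd200, an inhibitory ligand, and Tnfrsf4, the costimulatory receptor OX40, rose with a log2FC of 3.84 and 3.52, whereas Cd27, another receptor of that family, fell from 193 ± 14.1 to 55.4 ± 2.18 CPM, and Cd96 and Havcr2 (TIM-3) fell with a log2FC of -1.98 and -2.76. Havcr2 is also made by myeloid cells, whose markers fell in the same libraries; their part in its fall was not tested.

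Cytokine genes had one of the higher medians of all lists, 2.77, with 22 of 28 called higher and 4 lower. Il3, which acts on blood progenitors, had 0 counts in each resting library and 2.57, 5.56 and 4.98 CPM after stimulation, at least 107-fold higher with the floor of 3 counts per library; with Il3 at this bound the list median is the same. Il22, a cytokine that acts on epithelia, stayed low at 0.296, 1.43 and 0.518 CPM after stimulation, with 1 count in all resting libraries. In the other direction Ltb, which encodes lymphotoxin beta, fell from 411, 442 and 470.5 to 52.6, 53.2 and 51.2 CPM (log2FC -3.08 ± 0.08 SE), and the chemokine Ccl5 and the chemoattractant Il16 fell with a log2FC of -2.91 and -2.11. Cytokine receptors were mostly lower, with 14 of 22 lower and a median of -1.29. Il7r, the receptor chain for the IL7 present in both cultures, fell from 315, 349.5 and 414 to 19.9, 22.2 and 17.1 CPM (log2FC -4.19 ± 0.12 SE), and Il18r1 for interleukin 18 from 80.2 ± 15.9 to 4.03 ± 0.596 CPM. Receptors for transforming growth factor beta (Tgfbr2, log2FC -2.90) and interferon gamma (Ifngr1, log2FC -2.55) fell as well. Those that rose beside Il2ra were both chains for interleukin 12, Il12rb1 (18.4 ± 1.73 to 217 ± 2.27 CPM) and Il12rb2 (log2FC 2.63), and Il15ra (log2FC 2.00).

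Downstream of these receptors 10 of 20 genes of JAK, STAT, SOCS and Pim kinases rose and 7 fell, with a median of 0.15 that became -0.19 with library totals. The members that rose most are targets or parts of the STAT5 path: Cish (38.8 ± 5.05 to 349 ± 20.3 CPM), Socs1 (log2FC 2.59), the kinase Pim3 (log2FC 2.22) and Stat5a itself (log2FC 2.13). Jak1, the kinase that many cytokine receptors share, fell from 760.0, 820.3 and 1005 to 328, 299 and 317 CPM, and Socs3 fell with a log2FC of -1.41. Factors of the T helper lineages were split, 5 higher and 12 lower of 17. Tbx21, the factor of Th1 cells, rose from 28.4, 23.8 and 21.2 to 239, 253 and 254 CPM (log2FC 3.35 ± 0.15 SE), and Nfil3 (log2FC 3.42), Hif1a (log2FC 1.78) and Gata3, the factor of Th2 cells (log2FC 1.31), rose too. Maf fell from 164, 124 and 104 to 9.67, 8.69 and 8.83 CPM (log2FC -3.85 ± 0.19 SE, and -3.52 without resting libraries 1 and 2). At rest Maf was highest in library 1, as was the myeloid marker sum, and the part of myeloid cells in its fall was not tested. Bcl6, the factor of follicular helper cells (log2FC -2.84), Rora (log2FC -2.83) and Id2 (log2FC -1.92) also fell.

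**Figure D3:**
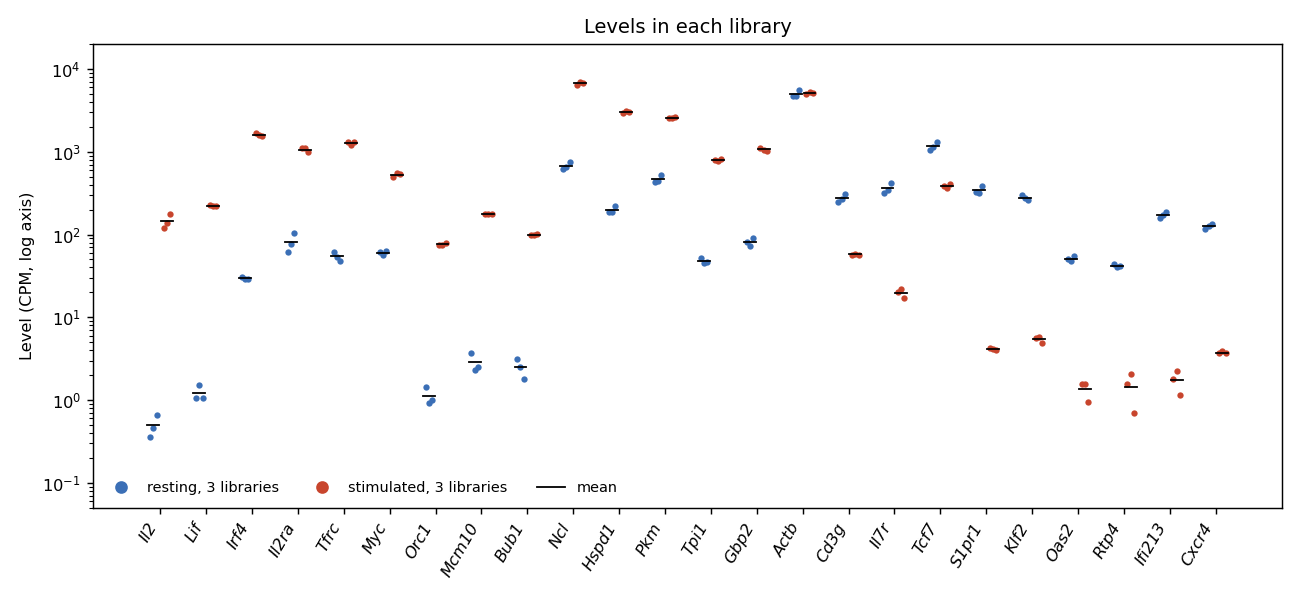
Level of 24 genes in each of the 3 resting (blue) and 3 stimulated (red) libraries (CPM, log axis), with the mean of each group as a line. The groups are apart for every gene shown except Actb, as they are for 84.7% of all genes tested. On average Il2 is at 0.496 against 145 CPM and Klf2 at 279 against 5.47 CPM.

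Genes that hold T cells in rest were lower. Of 25 genes of quiescence and the naive state 21 fell, 17 of them by at least 2-fold, and 3 rose, with a median of -1.64. Klf2, the factor that keeps naive T cells quiescent and in circulation (chr8:72319033-72321656), fell from 301, 274 and 263 to 5.68, 5.79 and 4.93 CPM (log2FC -5.67 ± 0.08 SE). S1pr1, the receptor by which T cells leave lymph nodes and a known target of Klf2, fell from 328, 321 and 380.1 to 4.22, 4.16 and 4.04 CPM (log2FC -6.37 ± 0.09 SE). Pik3ip1, an inhibitor of PI3 kinase, fell with a log2FC of -5.22, Rapgef4, an exchange factor for Rap, with a log2FC of -5.17, and Tcp11l2 with a log2FC of -4.99. Tcf7, the naive and memory factor TCF-1, fell from 1045, 1124 and 1305 to 390.0, 360.0 and 402 CPM.

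Homing genes followed the same direction, with 17 of 23 lower and a median of -1.73. The chemokine receptor Cxcr4 fell from 116, 127 and 133 to 3.68, 3.87 and 3.72 CPM (log2FC -5.06 ± 0.10 SE). The gut-homing receptor Ccr9 fell from 23.9 ± 11.2 to 0.446 ± 0.145 CPM (log2FC -5.74, and -5.06 without resting libraries 1 and 2) and the epithelial integrin chain Itgae with a log2FC of -4.34. The 3 members higher by at least 2-fold were the receptors Ccr8 (3.27 ± 0.696 to 80.5 ± 0.821 CPM) and Ccr4 (17.1 ± 2.00 to 224 ± 20.5 CPM) and the adhesion molecule Icam1 (log2FC 1.03). Among 18 GIMAP, Schlafen and Ypel genes 14 fell and 4 rose. Slfn5 fell from 210.1 ± 12.3 to 6.42 ± 1.23 CPM and Slfn1 with a log2FC of -3.55, whereas Slfn3 and Slfn9 of the same family rose with a log2FC of 1.78 and 1.08; Schlafen genes resemble each other in sequence, so reads may be divided between them with error. Ypel3 (log2FC -4.78) and Ypel5 (log2FC -3.27) fell.

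The interferon-response list divided into members that rose and members that fell. Of 38 genes 12 rose, 9 of them at least 2-fold, and 25 fell, 23 at least 2-fold, with a median of -1.54. Gbp2, a GTPase best known as an interferon gamma target, rose from 80.1, 73.5 and 91.2 to 1118, 1053 and 1024 CPM (log2FC 3.71 ± 0.10 SE), and the related GTPases Gbp5 and Iigp1 rose with a log2FC of 2.77 and 2.66. Ifi213, of the family of DNA-binding IFI200 proteins, fell from 159, 172 and 185 to 1.82, 2.26 and 1.15 CPM (log2FC -6.63 ± 0.17 SE). The antiviral synthetase Oas2 fell from 51.3 ± 3.25 to 1.36 ± 0.360 CPM (log2FC -5.24 ± 0.18 SE), and Rtp4 (log2FC -4.88) and Ifit3b (log2FC -5.03), 2 more genes known to respond to type I interferon, fell with it. Ifit1bl1 (log2FC -7.91), Ifi208 (log2FC -6.12), Ddx60 (log2FC -5.70) and Samd9l (log2FC -5.38) are interferon-response genes that are not on the list. They are named for being among the 15 largest falls of genes that varied little at rest. Their direction was fixed by that choice and adds nothing to the counts of the list. Without resting libraries 1 and 2, the 2 with the most myeloid transcripts, 12 members rose and 25 fell, with a median of -1.66; this choice was made after the data were seen, and the lone resting library is taken to vary like the other groups. Genes of class I presentation were lower in 12 of 15 cases. H2-K1 fell from 3356 ± 245 to 1384 ± 92.1 CPM, H2-D1 from 2184 ± 84.3 to 1148 ± 72.0 CPM and B2m, the light chain, with a log2FC of -0.65. The 3 that rose were the trimming peptidase Erap1 (log2FC 0.91), Tapbpl (log2FC 0.79) and the peptide transporter subunit Tap1 (log2FC 0.42). The H2 genes are near-identical copies of each other, so their counts carry that uncertainty.

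Cell cycle genes rose almost without exception. All 38 DNA replication genes tested and all 32 mitosis genes tested were called higher, 38 and 31 of them by at least 2-fold, and the medians of 3.33 and 4.29 were the highest of the 49 lists with mitosis first. Orc1, the largest subunit of the origin complex, rose from 1.43, 0.912 and 0.996 to 75.4, 75.6 and 79.8 CPM (log2FC 6.10 ± 0.64 SE) and Mcm10 from 3.74, 2.29 and 2.52 to 176, 177 and 179 CPM (log2FC 5.95 ± 0.54 SE). Uhrf1, which carries DNA methylation through replication, rose from 16.3 ± 1.63 to 691 ± 35.0 CPM, and the origin loader Cdc6 from 4.40 ± 1.51 to 166 ± 5.23 CPM (log2FC 5.23, and 5.87 without resting libraries 1 and 2). Bub1, a kinase of the spindle checkpoint, rose from 3.18, 2.49 and 1.81 to 99.1, 97.6 and 103 CPM (log2FC 5.32 ± 0.41 SE), cyclin B1 (Ccnb1) with a log2FC of 5.00, Aurora B (Aurkb) with a log2FC of 4.98 and the kinesin Kif2c with a log2FC of 4.96. Resting levels of these mitotic genes were not 0, and resting library 1 was the highest of the 3 for Bub1, as it was for erythroid and myeloid markers. The part of other cells in these resting levels was not tested.

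Regulators of entry into the cycle moved in both directions. Of 25 genes 21 rose and 4 fell, with a median of 1.70. Cyclin E2 (Ccne2) rose with a log2FC of 5.24, Cdk1 from 4.51 ± 1.35 to 165 ± 8.11 CPM, cyclin A2 (Ccna2) with a log2FC of 4.95 and the inhibitor Cdkn1a (p21) with a log2FC of 4.63. Cdkn1b, the p27 inhibitor of resting T cells, fell from 293, 321 and 346 to 33.4, 35.2 and 32.8 CPM (log2FC -3.24 ± 0.06 SE), and Rbl2, the p130 pocket protein, and Cdkn2d fell with a log2FC of -2.05 and -1.20. Ccnd1 (cyclin D1), which lymphocytes hardly use, fell from 51.1, 29.8 and 29.6 to 0.296, 0.426 and 0.581 CPM. Chromatin genes were higher in 16 of 22 cases, led after Uhrf1 by the methyltransferases Ezh2 (34.1 ± 0.542 to 465 ± 3.29 CPM) and Suv39h2 (log2FC 3.65) and by Hmgb2 (log2FC 2.88). Ezh1, which does the work of Ezh2 in non-dividing cells, fell from 98.0 ± 3.71 to 27.5 ± 1.22 CPM, and the methylcytosine dioxygenase Tet1 fell with a log2FC of -2.15.

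Myc rose from 61.0, 56.4 and 62.6 to 493, 554 and 536 CPM (log2FC 3.14 ± 0.06 SE, adjusted p = 2.4e-13), and few others of its network were called higher. Of the 13 genes 3 rose and 6 fell. Its partner Max rose with a log2FC of 0.91 and Mxd3 with a log2FC of 2.12 (2.95 without resting libraries 1 and 2). Among the factors that compete for Max, Mxd4 fell from 159, 172 and 179 to 8.27, 7.67 and 7.54 CPM (log2FC -4.44 ± 0.10 SE), Mnt with a log2FC of -0.76 and Mxd1 with a log2FC of -0.61. Mycl, a relative of Myc, fell from 5.67 ± 2.19 to 0.222 ± 0.0369 CPM, and the glucose-sensing factor Mlxip fell with a log2FC of -0.59.

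The genes that make ribosomes rose together. All 38 ribosome biogenesis genes tested were higher by at least 2-fold, with a median of 2.33. Ncl, the nucleolin of the nucleolus, had the largest rise in CPM of any named gene, from 614, 647 and 741 to 6479, 6958 and 6738 CPM (log2FC 3.33 ± 0.08 SE), and Npm1 rose from 616 ± 92.5 to 4822 ± 207 CPM. Nolc1, Nop16 and Noc4l, all of them nucleolar, rose with a log2FC of 3.20, 3.16 and 3.09. The ribosomal proteins themselves changed far less: of 54 tested 26 were called higher, 8 lower and 20 neither, and the median of 0.19 became -0.15 with library totals. Rps2 (1353 ± 140.1 to 3861 ± 162 CPM) and Rpl7a (log2FC 1.05) were the 2 with at least 2-fold rises; ribosomal protein genes have many pseudogenes that can share their reads. Mitochondrial ribosomal proteins were higher in 29 of 30 cases with a median of 1.85, led by Mrpl12 (28.3 ± 1.06 to 216 ± 9.01 CPM).

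Other machinery for making, folding and removing proteins rose as well. All 20 cytosolic aminoacyl-tRNA synthetases were higher (median 2.10), led by those for glycine, Gars (66.4 ± 4.86 to 435 ± 14.6 CPM), and methionine, Mars (log2FC 2.56). Translation factors were higher in 21 of 25 cases (median 1.68), among them Eif1a (log2FC 2.65) and Eif2s1 (log2FC 2.43). Proteasome subunits were higher in 31 of 33 cases (median 1.71), led by Psmd1 (log2FC 2.34) and the activator Psme3 (log2FC 2.33). Splicing and RNA-binding genes were higher in 24 of 30 (median 1.29), among them Hnrnpa1 (602 ± 34.7 to 2617 ± 59.0 CPM), one of the factors known to act on the choice of Pkm exons. Of 24 heat shock and chaperonin genes 19 rose (median 2.06). The mitochondrial chaperonin Hspd1 rose from 188, 185 and 219 to 2917, 3088 and 3007 CPM (log2FC 3.93 ± 0.08 SE), Hspa9 with a log2FC of 2.83 and the cytosolic chaperonin subunit Cct6a with a log2FC of 2.65. The stress-inducible pair Hspa1a and Hspa1b, near-identical copies of each other, both fell. Hspa1b, the more abundant, fell from 124, 216 and 135 to 6.07, 7.62 and 8.32 CPM and Hspa1a with a log2FC of -3.72.

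Glycolysis genes were higher, with 19 of 23 called higher and a median log2 fold change of 1.88. Hk2, the hexokinase of growing cells, rose from 14.3, 10.3 and 8.22 to 215, 226 and 221 CPM (log2FC 4.34 ± 0.17 SE). Tpi1 rose from 51.9, 44.7 and 46.4 to 799, 774 and 819.9 CPM (log2FC 4.06 ± 0.08 SE), Pgam1 with a log2FC of 3.51, Gapdh with a log2FC of 2.84 and the lactate transporter Slc16a1 with a log2FC of 3.25. Pkm (chr9:59656368-59679375), the gene of both the M1 and the M2 pyruvate kinase, rose from 436, 443 and 524 to 2566, 2532 and 2607 CPM (log2FC 2.46 ± 0.07 SE, adjusted p = 4.7e-12); gene counts do not separate the forms. Hk3, a hexokinase of myeloid cells, fell from 30.3, 17.9 and 10.4 to 1.59, 3.41 and 1.87 CPM (log2FC -3.09, and -2.18 without resting libraries 1 and 2), highest in resting library 1 like the myeloid marker sum; the part of myeloid cells in this fall was not tested. In the pentose phosphate pathway Tkt (log2FC 1.95), Pgd (log2FC 1.51) and Rpia (log2FC 1.07) rose by at least 2-fold and H6pd (log2FC -1.07) fell.

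Genes that feed pyruvate to the mitochondrion moved in both directions. Of 13 tested 8 rose and 5 fell. The parts of the pyruvate dehydrogenase complex rose: Dlat from 30.8 ± 2.49 to 113 ± 2.38 CPM, Dld with a log2FC of 1.47, Pdhx with a log2FC of 1.29 and Pdhb with a log2FC of 0.67, as did the carriers Mpc1 (log2FC 0.98) and, by less, Mpc2 (log2FC 0.34, near 0 with library totals) and pyruvate carboxylase, Pcx (log2FC 1.79). All 3 kinases tested, which switch the complex off, fell. Pdk1 fell from 280.0, 295 and 339 to 127, 114 and 122 CPM (log2FC -1.33 ± 0.07 SE) and Pdk2 from 10.7, 10.7 and 9.13 to 2.13, 1.87 and 2.53 CPM (log2FC -2.22 ± 0.12 SE), while Pdk4 was low in both groups (0.354 and 0.132 CPM) and was not called without resting libraries 1 and 2 (log2FC -0.71). Of the phosphatases that switch it on, Pdp2 rose (log2FC 0.97) and Pdp1 fell (log2FC -0.39). Pdpr, a regulatory subunit of the phosphatase and not an enzyme itself, fell (log2FC -0.45). Pdha1 and Pdk3 lie on the X chromosome and were left out. All 17 TCA cycle genes tested rose (median 1.23), led by Idh3a (42.8 ± 4.19 to 209 ± 2.51 CPM) and Fh1 (log2FC 2.03).

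**Figure D4:**
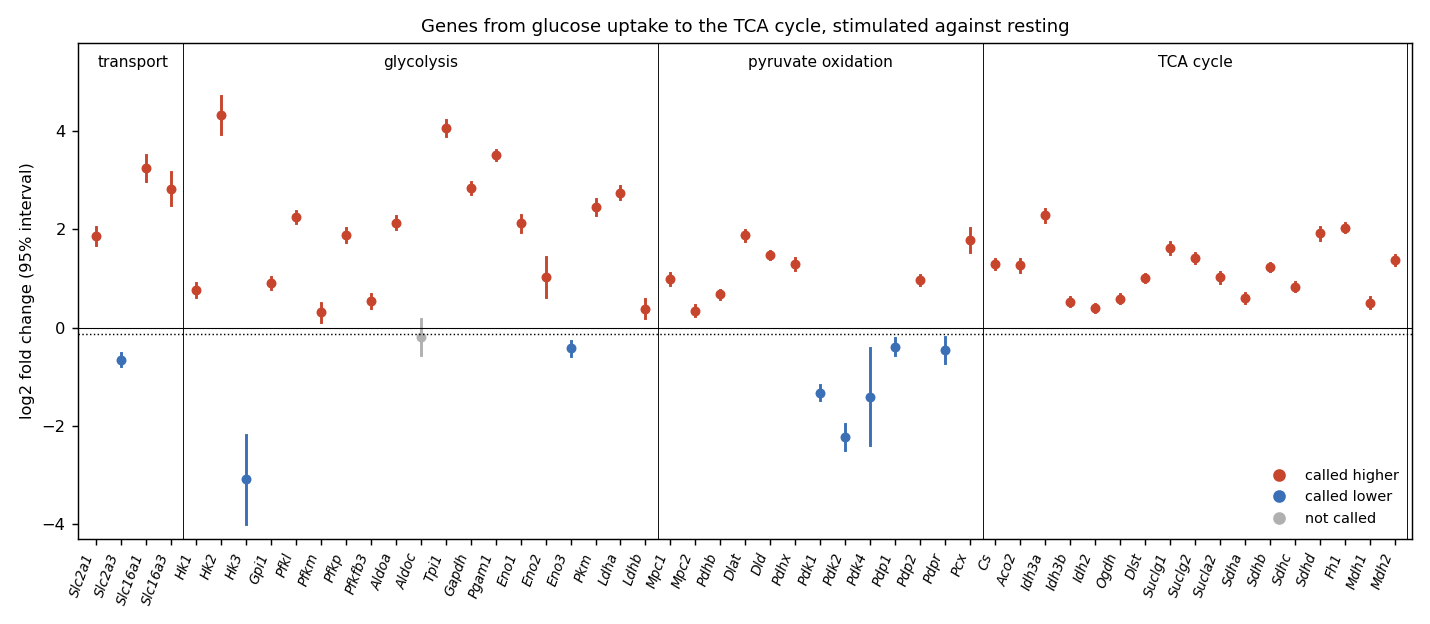
Log2 fold change with its 95% interval for genes of glucose and lactate transport, glycolysis, pyruvate oxidation and the TCA cycle; red was called higher, blue lower and grey neither, and the dotted line is the median of all genes tested. All 17 TCA cycle genes lie above 0, while Pdk1, Pdk2 and Pdk4 lie below it.

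Nuclear genes of the respiratory chain rose, and mitochondrial ones were mixed. Of 47 nuclear genes 46 rose and 0 fell (median 1.17), led by cytochrome c, Cycs (45.7 ± 2.60 to 281 ± 3.43 CPM). Of the 13 mitochondrial genes 3 rose and 6 fell (median -0.18). mt-Co1 fell from 10315, 10590.2 and 12595 to 7021, 6856 and 7302 CPM and mt-Cytb with a log2FC of -0.41, while mt-Nd1 (log2FC 0.68), mt-Nd2 (log2FC 0.47, not called with library totals) and mt-Nd6 (log2FC 2.19) rose. mt-Nd6 is the only one of these encoded on the other strand, opposite other mitochondrial transcripts, and the sources used here do not say whether strand was used in counting. Fatty acid oxidation genes rose in 10 of 16 cases by less (median 0.52), with Etfa (log2FC 1.24) the 1 higher by at least 2-fold.

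Most genes of biosynthesis rose. All 21 nucleotide synthesis genes tested were higher (median 2.68). Rrm2, the subunit that limits the making of deoxynucleotides, rose from 18.7, 14.7 and 11.7 to 495, 479 and 498 CPM (log2FC 5.02 ± 0.58 SE), Rrm1 with a log2FC of 3.94 and Dut with a log2FC of 3.76. Serine and one-carbon genes were higher in 16 of 18 cases (median 3.11). Shmt1 rose from 7.74 ± 0.956 to 231 ± 3.57 CPM and Tyms from 6.68 ± 0.891 to 153 ± 4.21 CPM. Amino acid transporters rose in 11 of 14 cases. Slc7a5, the leucine carrier, rose from 36.6 ± 7.26 to 408 ± 15.4 CPM (log2FC 3.48 ± 0.12 SE), its partner Slc3a2 with a log2FC of 1.36, the cationic carrier Slc7a1 with a log2FC of 2.43 and the glutamine carrier Slc1a5 with a log2FC of 1.45. The 3 lower were Slc7a8 (log2FC -4.59), Slc7a7 (log2FC -3.65) and the lysosomal sensor Slc38a9 (log2FC -1.66). Without resting libraries 1 and 2, those with the most myeloid transcripts, Slc7a8 was at -3.59 and Slc7a7 at -2.75, and the part of myeloid cells in these falls was not tested. Glutamine and polyamine genes were higher in 17 of 18 cases, with Odc1, the first enzyme of polyamine synthesis, rising from 68.4 ± 2.98 to 1052 ± 53.3 CPM, spermidine synthase (Srm) with a log2FC of 4.23 and asparagine synthetase (Asns) with a log2FC of 4.61 (5.65 without resting libraries 1 and 2).

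Lipid genes moved in both directions. Cholesterol synthesis and uptake genes were higher in 21 of 26 cases (median 1.64). Idi1, an enzyme of the isoprenoid path, rose from 35.8 ± 1.10 to 485 ± 14.4 CPM, and Cyp51 and Sqle with a log2FC of 3.19 and 2.90. The genes that remove cholesterol or its receptor fell. The exporter Abcg1 fell from 156 ± 9.23 to 6.69 ± 0.453 CPM, the exporter Abca1 fell with a log2FC of -5.17, and Mylip, the ligase that degrades the LDL receptor, fell with a log2FC of -3.81. In fatty acid synthesis 11 of 15 rose, among them Fasn (164 ± 29.9 to 768 ± 68.6 CPM) and Acaca (log2FC 2.32), which make the fatty acid chain, while Acacb, the carboxylase that limits oxidation (log2FC -1.90), and Scd1 (log2FC -1.32) fell.

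Iron, redox and lysosomal genes included several that are strong in macrophages. Of 28 iron and redox genes 18 rose and 7 fell. Txn1 (68.7 ± 12.3 to 406 ± 34.6 CPM), Txnrd1 (log2FC 2.26) and Prdx1 (log2FC 1.51) of the thioredoxin system rose. Slc40a1, the iron exporter ferroportin, fell from 712, 359.8 and 172 to 0.0934, 0.426 and 0.110 CPM (log2FC -10.96 ± 0.79 SE), with a log2FC of -10.31 without resting library 1 and -11.96 without stimulated library 2. The haem oxygenase Hmox1 fell from 737, 361 and 168 to 6.65, 10.6 and 6.55 CPM (log2FC -5.73, and -5.06 without resting library 1). With both resting libraries 1 and 2 left out, Slc40a1 was at -9.68 and Hmox1 at -4.41. At rest both were highest in library 1, as was the myeloid marker sum, and the part of myeloid cells in these falls was not tested. Ferritin heavy chain, Fth1, fell with a log2FC of -1.01 (-0.79 without resting libraries 1 and 2), and the part of myeloid cells was not tested here either. Among 31 genes of mTOR, AMPK and autophagy 12 rose and 17 fell. The cathepsins Ctsl (log2FC -2.28), Ctsb (log2FC -1.96) and Ctsd (log2FC -1.72), enzymes of the lysosome, fell. Without resting libraries 1 and 2, those with the most myeloid transcripts, Ctsl was at -1.46, Ctsb at -1.06 and Ctsd at -1.37. The part of myeloid cells in these falls was not tested. Of the sestrins Sesn1 fell (log2FC -2.80) and Sesn2 rose (log2FC 1.95). Genes of the stress response of the endoplasmic reticulum and amino acids rose in 18 of 26 cases. Sdf2l1 (log2FC 2.41) and Pdia6 (log2FC 1.97), which fold secreted proteins, were among them, while Ddit4, an inhibitor of mTORC1, fell from 198, 165 and 166 to 59.9, 49.5 and 58.7 CPM, and Ern1 and Dnajb9 fell with a log2FC of -1.11 and -1.19.

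Genes of cell survival were mixed on both sides. Of 12 genes that oppose death 7 rose and 5 fell. Bcl2l1, which makes BCL-XL, rose from 25.6, 24.5 and 25.9 to 239.6, 273 and 260.5 CPM (log2FC 3.34 ± 0.06 SE), whereas Bcl2 fell from 152, 194 and 237 to 119, 110.3 and 107 CPM (log2FC -0.79 ± 0.12 SE) and Mcl1 from 713, 706 and 735 to 416, 449 and 411 CPM (log2FC -0.76 ± 0.05 SE). Birc5 (survivin), a mitotic gene as well, rose with a log2FC of 4.53. Bcl2a1b and Bcl2a1d rose with a log2FC of 1.45 and 1.73 and Bcl2a1a fell with a log2FC of -2.56 (-1.96 without resting libraries 1 and 2), but these are near-identical copies and their reads may be divided with error. Of 10 genes that promote death 5 rose and 2 fell, with a median of 0.27 that became -0.08 with library totals. The pore formers Bax (62.0 ± 1.95 to 163 ± 2.64 CPM) and Bak1 (log2FC 1.10) and the activator Bid (log2FC 1.20) rose. Bmf fell from 17.4, 13.9 and 18.2 to 0.545, 0.705 and 0.754 CPM (log2FC -4.62 ± 0.21 SE) and Bok with a log2FC of -1.99 (-1.35 without resting libraries 1 and 2). Bcl2l11 (BIM), a main killer of resting T cells, was at 61.4 ± 1.29 CPM at rest and 63.5 ± 3.90 CPM after stimulation. It was not called, with an interval of -0.06 to 0.16 for its log2 fold change. With library totals it was called lower (log2FC -0.29), and without stimulated library 2 it was called higher (log2FC 0.11). Among death receptors, caspases and p53 targets 19 of 26 rose, among them the p53 target Phlda3 (log2FC 4.36) and the TRAIL receptor Tnfrsf10b (log2FC 3.28), and Trp53inp1 (log2FC -2.04) and Casp1 (log2FC -1.96) fell.

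Effector genes were lower in 15 of 18 cases (83.3%, against 44.8% of all genes tested), with a median of -1.57. Gzmb, the cytotoxic granzyme B, was the main exception and rose from 6.78, 8.61 and 12.7 to 99.8, 184 and 128 CPM (log2FC 3.87 ± 0.28 SE). S100a4 and S100a6, calcium-binding proteins of memory cells, both fell. S100a4 fell from 45.7 ± 3.80 to 0.945 ± 0.299 CPM and S100a6 from 27.9, 25.2 and 25.6 to 2.26, 2.30 and 2.23 CPM, and the scaffold Ahnak fell with a log2FC of -2.56. Markers of NK cells, gamma-delta T cells and myeloid cells were lower in the same stimulated libraries. The part of such cells in the falls of effector genes was not tested. Cytoskeletal genes moved in both directions, 15 higher and 11 lower of 29, with a median of 0.12 that became -0.22 with library totals. The largest rises on the list were those of Stmn1, which takes microtubules apart, with a log2FC of 3.42, the tubulin Tuba1b from 359 ± 18.3 to 3207 ± 88.5 CPM, lamin B1 (Lmnb1) with a log2FC of 2.80, and the tubulin Tubb5 from 492 ± 60.1 to 3011 ± 28.2 CPM. Vimentin (Vim) fell from 269, 280.2 and 332 to 48.6, 74.3 and 56.7 CPM, and talin (Tln1, log2FC -1.12), Coro1a (log2FC -1.10) and the non-muscle myosin Myh9 (log2FC -1.02) fell too.

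The largest falls included genes known from macrophages and other cells. C6, a complement protein, had 10707 counts in the resting libraries together (86.5, 40.8 and 16.1 CPM) and 1 count after stimulation. Mrc1, the mannose receptor of macrophages, fell from 339.8, 146 and 70.6 to 0.0623, 0.164 and 0.0314 CPM (log2FC -11.07). This value was -10.29 without resting library 1, -9.67 without resting libraries 1 and 2, and -11.89 without stimulated library 2. Itgad, an integrin chain of splenic macrophages, fell with a log2FC of -11.56, which was -10.84, -10.17 and -12.89 under the same settings. Of the 16 myeloid markers all were lower by at least 2-fold, none was at 0 in the stimulated libraries, and without resting libraries 1 and 2 all 16 were still lower. In bulk libraries fewer cells of a type and less RNA per cell cannot be told apart. When genes on marker lists of other cells and genes that differed by 1.5-fold or more between resting libraries are left out, the largest falls included Slc16a5, a monocarboxylate transporter (log2FC -7.35), Fn1, fibronectin (log2FC -7.31), Cd7, a surface protein of T and NK cells (28.4 ± 2.15 to 0.212 ± 0.0300 CPM), Hsd11b1, which regenerates glucocorticoids (log2FC -6.55), and Myo1f, a myosin of leukocytes (log2FC -5.34), beside Klf2, S1pr1, Ifi213 and S100a4. Fn1 is a product of macrophages and stroma as well, and the 10 stromal and endothelial markers fell from 220 to 242 CPM at rest to 17.4 to 19.1 CPM after stimulation, with Pdgfra at 0. The part of these cells in the fall of Fn1 was not tested. Marker sums of NK cells also varied little at rest (185 to 221 CPM) and were lower after stimulation (37.7 to 70.5 CPM). Genes of such cells can therefore pass this selection. The part of other cells in the falls of Cd7, Myo1f, S100a4 and the rest was not tested.

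Of 668 genes whose 95% interval lay within 0.25 of 0 on the log2 scale, those with the highest level were Actb (4711, 4726 and 5520.4 CPM at rest and 4925, 5321 and 5188 CPM after stimulation), 4 ribosomal proteins, among them Rpl19, and the splicing protein Srrm2, but with library totals Actb, Rpl19 and Srrm2 were called lower, Actb at a log2FC of -0.30. By difference in CPM, the largest rises after Ncl were those of Hsp90ab1 (1709.7 ± 244 to 7485 ± 163 CPM), Npm1, Ptma (1069 ± 54.1 to 5109 ± 34.9 CPM) and Hspa8 (2351 ± 318 to 5648 ± 126 CPM). The largest losses after mt-Co1 were those of Tpt1 (4143 ± 679 to 2151 ± 95.7 CPM), H2-K1, and Arhgap45, a GTPase activator of blood cells (1771 ± 181 to 163 ± 4.43 CPM).

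**Figure D5:**
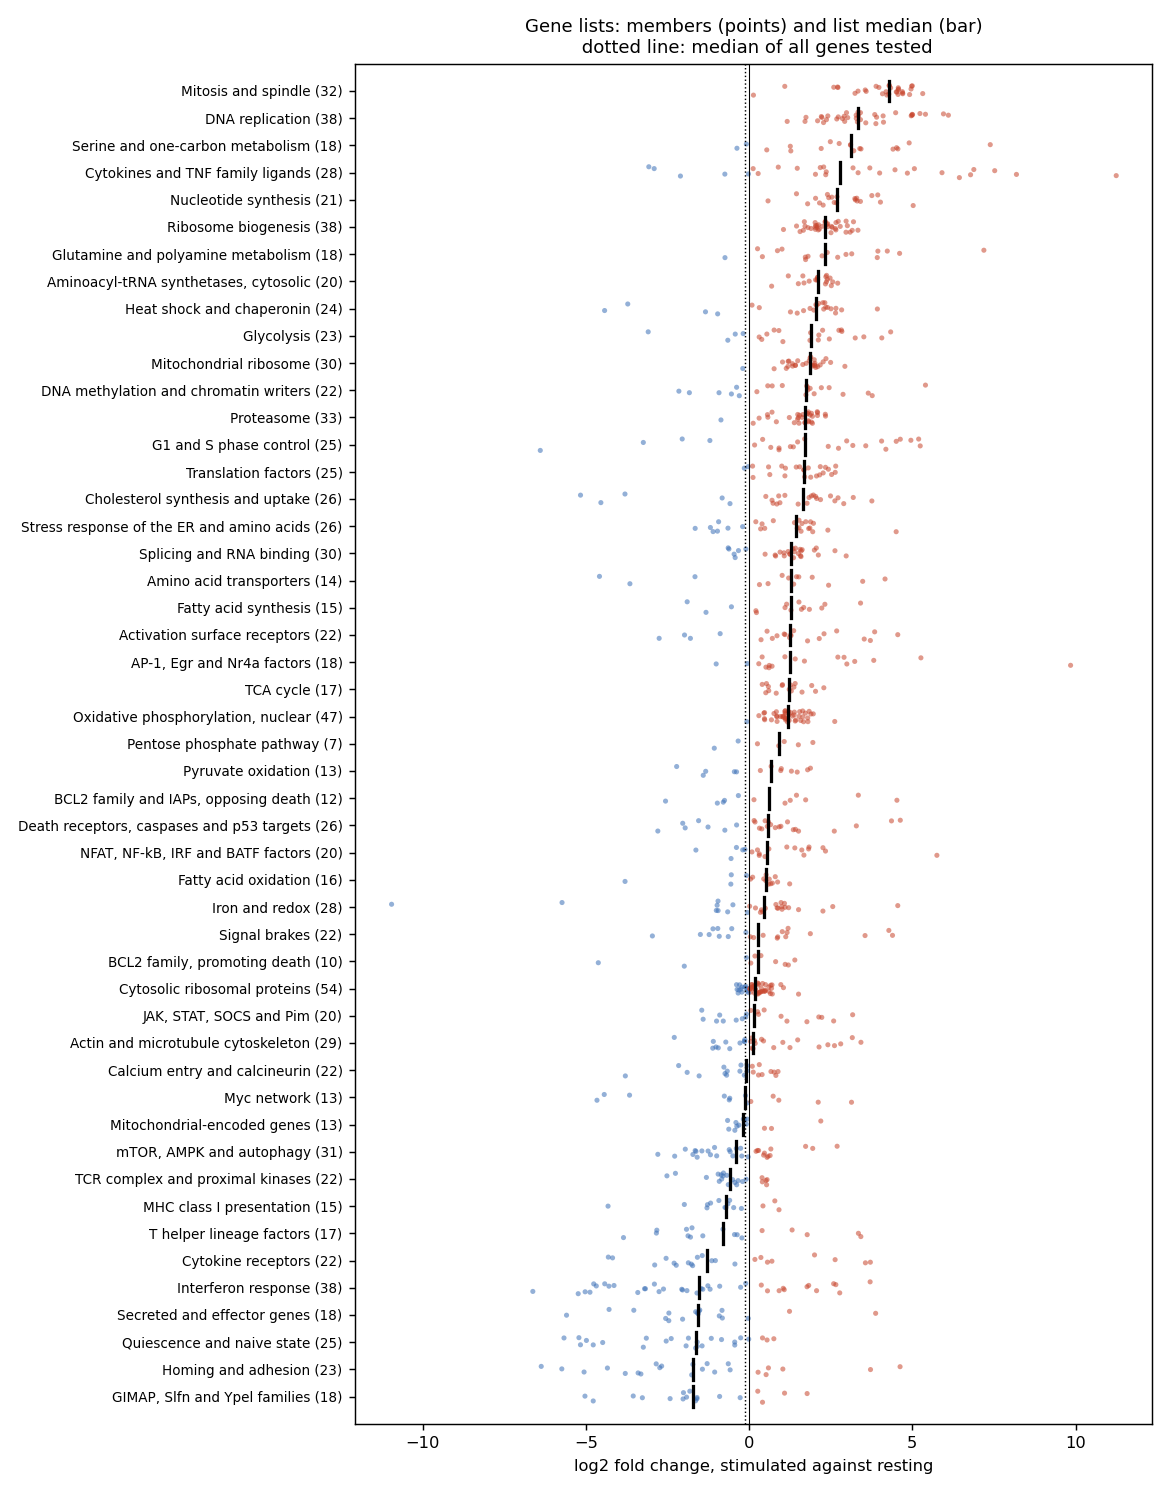
Log2 fold change of every tested member (points, red above 0 and blue below) of 49 gene lists, ordered by the list median (black bar), with the number tested in brackets and the median of all genes as a dotted line. Mitosis (median 4.29), DNA replication and serine metabolism lie highest, and GIMAP, Schlafen and Ypel genes (-1.73), homing and quiescence lowest.

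The response was compared with that of Pkm2 knockout cells, in the same fit, by the difference between the log2 fold changes in WT and in KO. This difference was called for 118 genes (0.697% of those tested), 91 of which were among the 9203 genes that changed at least 2-fold in WT. Of these 9203 genes 8703 were called in the same direction in KO, and 9153 had the same sign. Among the genes described here, Cxcr4 had a log2FC of -5.06 in WT and -2.76 in KO, a difference of -2.30 ± 0.12 SE with an adjusted p of 4.8e-06 by edgeR's quasi-likelihood test. Klf2 had a log2FC of -5.67 in WT and -5.11 in KO, a difference of -0.57 ± 0.10 SE (adjusted p = 0.027). The count of such genes rested on single libraries: it ranged from 20 without stimulated library 1 to 1596 without resting library 3, with 217 and 62 without resting libraries 1 and 2 and 227 and 41 without stimulated libraries 2 and 3. For Pkm itself the response was 2.46 in WT and 2.51 in KO, and the difference was not called.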

How the data were processed

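Libraries were made from polyA RNA with a stranded ligation kit, per the labels' protocols. Per the submitters' processing notes, bcl2fastq 2.20, cutadapt 1.18, STAR 2.7.0f, RSEM 1.3.1 and the mm10 build were used; settings and the use of strand in counting are not given in the sources used here. The authors deposited expected counts per gene, estimated by RSEM from reads shared between genes, in 1 table for resting and 1 for stimulated libraries. Gene symbols and coordinates are those of the GENCODE M21 annotation.

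The tables were joined by gene identifier, genes on X and Y left out, and the expected counts rounded to whole numbers. Genes passed edgeR's filterByExpr (minimum count 10), were scaled with TMM factors, and were tested in edgeR 4.0.16 (R 4.3.3) with a robust quasi-likelihood fit of 4 group means. All 3 steps used all 12 libraries, so that 6 KO libraries enter the filter, the scaling and the estimate of the spread. With only the 6 WT libraries 6392 genes were called higher and 7018 lower. P-values were adjusted by Benjamini-Hochberg over all genes tested, with a threshold of 0.05. CPM are on TMM-scaled library sizes. For a gene at 0 in a whole group, a bound on its fold was computed with a floor of 3 counts per library. The fit, the log2FC and the counts of genes by fold do not use this floor. Among genes called by at least 2-fold, 35 were at 0 in all resting and 254 at 0 in all stimulated libraries. The fit was tested on simulated data in which few genes differed, which does not check the scaling where most genes differ.

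The members, gene lists and marker lists were chosen with earlier results of these data known. Named genes are, per direction, up to 15 with the largest fold change at 20 CPM or more, the same without other-cell markers and, for falls, under 1.5-fold spread at rest, up to 10 with the largest CPM difference, up to 4 called by at least 2-fold from each list, up to 6 steady genes of the highest level, and Pkm, Il2, Il2ra, Cd69 and Myc; lists of up to 15 genes may be named whole. Alternatives changed scaling, filter, test, libraries and block. DESeq2 1.42.0 was used for 2 of them. Replicates differed by more than counting noise, so none was merged. Some items are not reported here.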

Additional observations from a re-analysis of the deposited data

Results flagged for a closer look

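Of the 273 genes of the text, 18 were called for a difference between the WT and KO responses. Over all 16924 genes tested 118 were called (0.697%). The test was edgeR's quasi-likelihood test of the difference itself (Benjamini-Hochberg adjusted p below 0.05). Most genes of the text were picked for large changes in WT cells, so these counts are not like for like. The count over all genes ranged from 20 to 1596 when 1 replicate was left out. Whether each of the 18 stayed called in those settings is not shown. Each value is the WT log2 fold change minus the KO one. The chemokine receptor Cxcr4 (-2.30), the calcium-binding S100a4 (-1.76) and S100a6 (-0.91), the interferon-response genes Ifi213 (-1.51) and Samd9l (-0.89) and the factor Maf (-1.38) fell further in WT cells. Dusp1 (-1.08), Ddit4 (-0.82), Abca1 (-0.65), Klf2 (-0.57), Ypel5 (-0.54), Ypel3 (-0.53) and Tcp11l2 (-0.50) also fell further in WT cells. Fos (-1.09) had a log2 fold change of -1.01 in WT cells and 0.08 in KO cells, where it was not called. Rgs1 (-0.82) rose less in WT cells. Phlda3 (1.13) and Noc4l (0.27) rose more in WT cells, and Tet1 (0.80) fell less. Differences in other-cell markers and sex-linked transcripts between the libraries were not tested as a part of these values.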

How the results depend on the processing

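The count of genes called higher ranged from 5346 with library totals to 6861 with genes on X and Y kept, and the count called lower from 6046 with the stricter low-level filter (1 CPM or more in 3 libraries) to 9098 with library totals. The counts with at least 2-fold changes ranged from 2959 to 4120 higher and from 3743 to 6376 lower, with 3368 and 4476 in a test against a 2-fold change itself. Without resting libraries 1 and 2, chosen after the data were seen, 6355 genes were higher and 6949 lower. In that setting 22 of 25 quiescence genes and 17 of 23 homing genes were lower, and all 38 replication genes and 31 of 32 mitosis genes were higher. Leaving out each replicate in turn gave 6525 to 6737 genes higher and 7365 to 7618 lower. With the replicate number as a block the counts were 6642 and 7543, and 92 for the difference of responses. Samples that share a number showed correlations of -0.125, -0.009 and 0.049, and those that do not showed -0.146 to 0.165. These values cannot decide whether the numbers pair the samples. The levels of Xist and Ddx3y given above were unlike within every such pair. The count of differing responses moved most: it was 997 with DESeq2's Wald test, 183 with the 1 CPM filter, and 20 to 1596 when 1 replicate was left out; the cause was not tested.

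Among the genes of the text, those that changed direction lay near 0. Actb moved from 0.05 to -0.30 with library totals, -0.018 with the 1 CPM filter and -0.10 without resting libraries 1 and 2. Rpl19 moved from 0.03 to -0.31, -0.029 and -0.18 under the same settings and ranged from -0.058 to 0.16 when 1 replicate was left out. Bcl2l11 moved from 0.05 to -0.29 with library totals, where it was called, and -0.015 with the 1 CPM filter, and Mpc2 from 0.34 to -0.0034 with library totals. Without stimulated library 2 Bcl2l11 kept its direction, at 0.11, and was called higher. Among lists not given above with such a value, plasma cell markers moved from -0.54 to 0.35 without resting libraries 1 and 2. A gene with fewer than 3 counts in a library, about 0.04 CPM, cannot be told from absent at this depth.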
